A study of Mus musculus with 121 samples.

Results

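Striatal projection neuron genes were followed as 36 of the 24412 genes of the deposited count table, each found by its symbol in a list of genes known to be expressed in these cells. Members were chosen with earlier results of these data known. Their counts beside all genes are therefore a description and no independent test. Striatal projection neurons are the GABAergic output cells of the striatum, and dopamine acts on them through Drd1 on direct pathway cells and Drd2 on indirect pathway cells. Receptor signals meet at a stimulatory G protein built from Gnal and Gng7 and at the adenylyl cyclase Adcy5, and the cAMP-dependent kinase then acts on Ppp1r1b, an inhibitor of a protein phosphatase. The cell bodies lie in the striatum while the axons end in the globus pallidus and the substantia nigra, so their RNA is found mainly in striatum.

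The 9 signalling members were Ppp1r1b, Adcy5, Gng7, Gnal, the small GTPase Rasd2, the exchange factor Rasgrp2, the cAMP-regulated phosphoprotein Arpp21, the striatum-enriched tyrosine phosphatase Ptpn5 and the kinase Dclk3. The 4 receptors were the orphan receptors Gpr6, Gpr52 and Gpr149 and the muscarinic receptor Chrm4. The 12 transcription factors and cofactors were Foxp1, Foxp2, Bcl11b, Meis2, Ebf1, Isl1, Rarb, Sp9, Six3, Eya1, Dlx5 and Dlx6. The 6 channel or synapse genes were the sodium channel subunit Scn4b, the potassium channel partners Kcnip2 and Kcnab1, the actin cross-linker Actn2, Syndig1l and Gprin3. The 5 others were the tryptophan-degrading enzyme Ido1, Tmem158, Cd4, Lrrc10b and Ankrd63.

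RNA of prefrontal cortex (PFC), striatum (STR) and substantia nigra (SN) of male mice was sequenced in 121 libraries, each from 1 region of 1 mouse, with total counts between 9869584 and 26750905. All mice were of a mixed 129Ola/ICR/C57bl6 background and differed in the conditional GDNF cKU allele, which raises endogenous Gdnf after recombination by Cre: WT was wt/wt, HET wt/cKU and HOM cKU/cKU. In the GDNF cKU x Nestin-Cre model, untreated and labelled 2 months old, Cre acts in the central nervous system from mid-gestation, and 21 mice gave 8 WT, 6 HET and 4 HOM libraries of PFC and 6, 7 and 6 of both STR and SN. For STR and SN of this model the text of the study gives a wider age range than the labels. In the GDNF cKU +AAV-Cre model, every mouse, WT included, had bilateral striatal AAV-Cre injections at an age of 3 to 5 months and was 5 to 7 months old at dissection, and 22 mice gave 7 WT, 7 HET and 8 HOM libraries of PFC and of SN and 7 of each genotype of STR. The models differ in age, in treatment and in where Cre acts, so a difference between models cannot be told apart from these, and both compare whole dissected tissue. Levels are given in cpm, counts over the library total after TMM scaling, taken over all libraries of a model.

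Levels of Gdnf, the targeted gene, were set beside the genotype labels. In Nestin-Cre STR it ran over 3.90 to 7.73 cpm in WT (median 6.22), 3.99 to 9.38 in HET (median 5.65) and 5.74 to 9.89 in HOM (median 6.92). The 3 groups overlapped, so these Gdnf counts do not tell the labels apart. By qPCR, the study reports striatal Gdnf mRNA that rose with allele dose in this model, and GDNF protein that did likewise. After AAV-Cre injection it also reports raised striatal Gdnf by qPCR in both mutant groups. Per the study, the recombined allele gives an mRNA with a shorter untranslated 3' end. Counts were taken over the summed exons of the gene (4867 bases), so they and qPCR are unlike measures. What the shorter end does to the counts was not tested. In the Nestin-Cre STR libraries, log2 fold changes of Gdnf against WT were 0.07 (SE 0.19, adjusted p 0.850) in HET and 0.28 (SE 0.19, adjusted p 0.784) in HOM. In AAV-Cre STR it ran over 5.50 to 7.53 cpm in WT (median 6.83), 6.44 to 9.55 in HET (median 7.55) and 7.72 to 10.1 in HOM (median 8.68), so that every HOM library lay above every WT library. There the log2 fold changes were 0.20 (SE 0.09, adjusted p 1.00) and 0.40 (SE 0.09, adjusted p 0.504). In WT PFC Gdnf ran over 0.214 to 0.939 (median 0.414) cpm (Nestin-Cre) and 0.309 to 1.21 (median 1.04) (AAV-Cre), and in WT SN over 0.274 to 0.499 (median 0.413) and 0.0972 to 1.02 (median 0.2196). HET and HOM medians were 0.370 and 0.138 cpm in Nestin-Cre PFC, 0.488 and 0.657 in Nestin-Cre SN, 1.25 and 0.754 in AAV-Cre PFC, and 0.385 and 0.452 in AAV-Cre SN. Labels of mouse M4575 (Nestin-Cre) disagree, with WT for its PFC library and HOM for its libraries of the other 2 regions. In the genotype and interaction fits, a count of members called that changes without this mouse is given both ways. The fits of WT regions hold its PFC library and were not run without it.

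Tissue labels were checked with markers of each region. Summed over 8 markers of cortical excitatory neurons, of which Slc17a7 was the most abundant in all 3 regions, WT means were 2184 cpm in PFC, 169.7 in STR and 114 in SN of the Nestin-Cre model, and 1934, 72.1 and 138 in the AAV-Cre model. The 6 dopamine neuron markers, led in SN by the dopamine transporter Slc6a3, summed to 25.2, 26.6 and 2787 cpm, and to 20.8, 24.5 and 2827. Cd4, best known from T cells, ran over 82.2 to 145 (median 128) cpm in Nestin-Cre WT STR and 65.9 to 109 (median 95.4) in AAV-Cre WT STR. Of 5 T cell markers, 4 had means under 1 cpm in both groups, and the most abundant, Lck, averaged 3.04 and 2.44 cpm.

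A pair of SN libraries stood apart in these genes, the Nestin-Cre HET library of M4566 and the AAV-Cre WT library of M3587. The measure was the share, a member's cpm as a percentage of its mean in WT STR of the same model, and its median over the 36 members in a library. M4566 had a median share of 18.4%, while the other 6 libraries of its group had 4.25 to 5.82%. M3587 had 13.4%, while the other 6 of its group had 5.98 to 7.65%. In M4566, Ppp1r1b stood at 365 cpm against 35.5 to 51.0 in the others of the group, Lrrc10b at 38.0 cpm against 0.591 to 2.88 and Gpr6 at 10.8 cpm against 0.778 to 1.45. In M3587, Ppp1r1b stood at 205 cpm against 37.7 to 63.1, Ankrd63 at 17.2 cpm against 0.290 to 3.34 and Gpr6 at 7.63 cpm against 0.696 to 3.74. Above the median of the other libraries, M4566 held a median of 12.5% of the striatal level over the members (quartiles 10.3 and 14.8), from -3.07 for Ebf1 to 28.5 for Eya1. It lay above all others of its group in 32 of 36 members, and 25 of the 36 had an excess between 10 and 20%. For M3587 the median excess was 6.56% (quartiles 5.53 and 7.57), from -8.47 for Foxp2 to 16.7 for Gpr149, and 27 of 36 members lay above all others of its group. The other 10 projection neuron genes were Drd1, Drd2, Adora2a, Penk, Tac1, Pdyn, Pde10a, Pde1b, Rgs9 and Rxrg, and 1 gene was left out after its values were seen. These 10 genes had a median excess of 13.1% in M4566, with 10 of 10 above the others, and of 7.40% in M3587, with 8 of 10. Counts over this shortened list are a description only. Cholinergic markers summed to 18.3 cpm in M4566 and 10.3 in M3587, against highest values of 4.43 and 4.91 in the others of their groups. In the other Nestin-Cre SN groups they reached 9.45 cpm in WT and 9.93 in HOM. The source of this RNA was not tested.

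**Figure D1:**
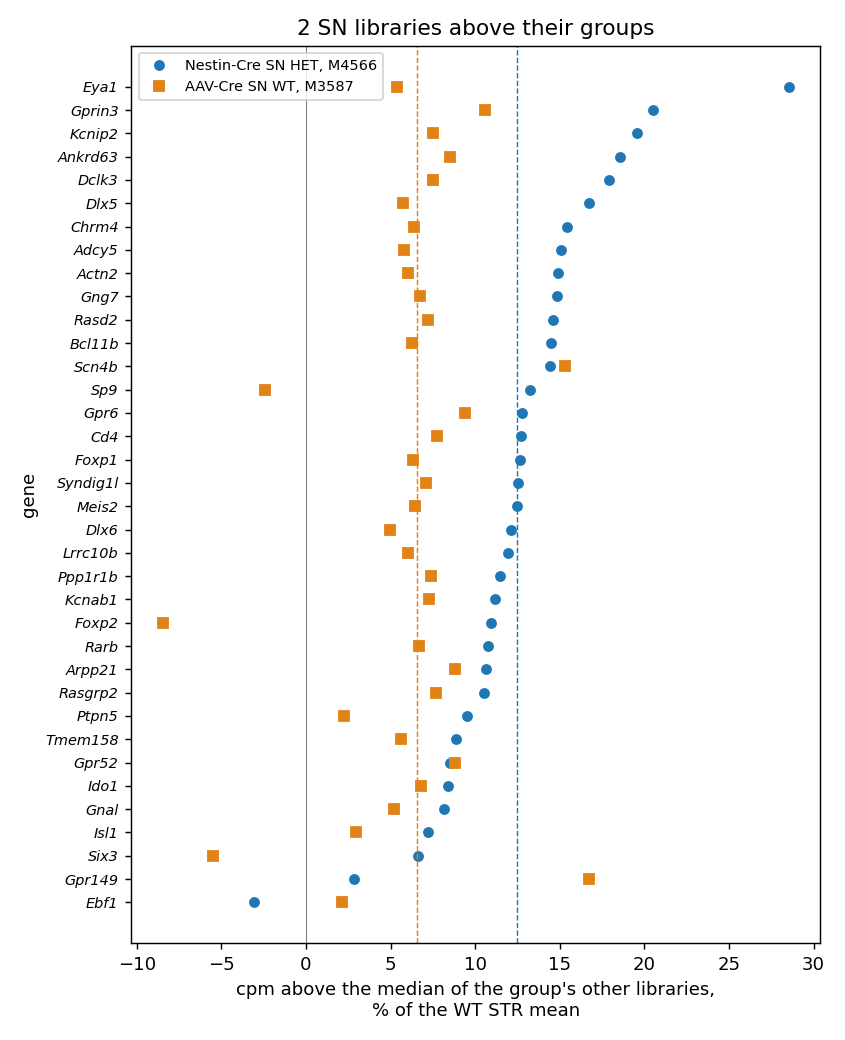
For each member (vertical axis), the cpm of 1 SN library above the median of the other libraries of its group, as a percentage of the WT STR mean (horizontal axis), with dashed lines at the medians over the members. M4566 (circles) has a median of 12.5% and M3587 (squares) of 6.56%.

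Which members are striatal in these dissections was asked by comparing the 3 regions in WT mice. Per kilobase of transcript, Ppp1r1b was the most abundant member in WT STR, at a mean of 1345 cpm per kb for Nestin-Cre and 999 for AAV-Cre mice. Gng7 stood at 513 and 478 cpm per kb, Scn4b at 394 and 340.5, Rasd2 at 315 and 292 and Adcy5 at 283 and 302, while the orphan receptor Gpr149 had 3.01 and 4.11. STR against PFC, edgeR called 35 of 36 members higher in the Nestin-Cre model (34.2% of all 14926 genes; 34.0% lower) and 35 higher and 1 lower in the AAV-Cre model (33.8% and 31.8% of all 15043). STR against SN, it called all 36 higher in both models (38.3% and 35.9% of all genes; 37.8% and 39.7% lower). The median log2 fold change of the members was 2.74 and 2.16 against PFC (all genes 0.00 and 0.02), and 4.46 and 3.64 against SN (all genes -0.01 and -0.03). The members were listed as striatal genes, so these directions restate their choice. Members named below for a region or a share were chosen after their values were seen.

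Ppp1r1b (mm10, Entrez 19049, chr11:98348406-98357796, plus strand) ran over 2113 to 3398 (median 2939) cpm in WT STR of the Nestin-Cre model, 133 to 298 (median 171) in PFC and 36.5 to 57.5 (median 40.2) in SN. The 3 regions did not overlap. STR against SN its log2 fold change was 6.02 (SE 0.21, adjusted p 4.44e-16), and STR against PFC 3.95 (SE 0.17, adjusted p 2.73e-14). Higher values against SN, among others, belonged to Ankrd63, 9.01, the T cell coreceptor gene Cd4, 8.32, Lrrc10b, 7.50, and the indirect pathway receptor Gpr6, 6.31. In the AAV-Cre model the same 4 stood at 5.80, 6.10, 5.87 and 4.57, with M3587 among the SN libraries. Their levels in M3587 were 17.2, 7.26, 16.7 and 7.63 cpm. The others of its group had medians of 0.421, 0.155, 1.83 and 1.55, so M3587 raised the SN level of these 4. Without that library, an alternative chosen after seeing the data, all 36 members were again called higher in STR than in SN, with a median log2 fold change of 3.79.

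Eya1, a transcriptional cofactor, was the exception against PFC. It ran over 13.0 to 17.8 (median 14.1) cpm in WT STR, 12.9 to 18.5 (median 14.8) in PFC and 3.66 to 19.0 (median 4.98) in SN of the Nestin-Cre model, and 9.80 to 15.8 (median 13.2), 15.2 to 17.9 (median 16.6) and 4.23 to 10.04 (median 5.93) in the AAV-Cre model. STR and PFC overlapped in both models. STR against PFC its log2 fold change was -0.06 (SE 0.29, adjusted p 0.865) in the Nestin-Cre and -0.34 (SE 0.14, adjusted p 0.0322) in the AAV-Cre model, where it was called lower in STR. With mouse as a block, 36 of 36 members had a positive log2 fold change in the Nestin-Cre model, so the sign of Eya1 there turned with the fit. SN against PFC, edgeR called 6 members higher and 29 lower in the Nestin-Cre model (37.6% and 41.2% of all genes), and 4 and 30 in the AAV-Cre model (37.7% and 36.4%). The median was -1.48 and -1.35 (all genes -0.03 and 0.01). With mouse as a block, the counts were 7 and 28 in the Nestin-Cre model (5619 and 6134 of 14926 genes) and 4 and 30 in the AAV-Cre model. Values of single members below are from the fit without the block. The forkhead factor Foxp2 was higher in SN than in PFC at 1.24 (SE 0.12, adjusted p 3.23e-09) and 0.93 (SE 0.12, adjusted p 3.39e-07), Ebf1 at 1.15 (SE 0.12, adjusted p 2.74e-08) and 1.49 (SE 0.12, adjusted p 1.08e-10). Gpr149 stood at 0.87 (SE 0.19, adjusted p 0.000239) and 0.73 (SE 0.27, adjusted p 0.0188), and the homeobox gene Six3 at 1.86 (SE 0.22, adjusted p 1.37e-07) and 0.70 (SE 0.21, adjusted p 0.00546). Rasgrp2, 0.60 (SE 0.12, adjusted p 0.000103), and Ido1, 0.87 (SE 0.30, adjusted p 0.0115), were called higher in the Nestin-Cre model alone, and the difference between models was not tested.

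Outside striatum the members were found in unequal shares of their striatal level, which was described without a test. In Nestin-Cre WT PFC the mean share was under 10% for 12 members, from 10 to 30% for 17 and over 30% for 7. The smallest were Ido1 at 1.90%, Cd4 at 3.09%, Lrrc10b at 3.14%, Gpr6 at 3.99% and Syndig1l at 4.28%, with Ppp1r1b at 6.38%. The largest were Eya1 at 104%, the kinase Dclk3 at 40.1%, the homeobox factor Meis2 at 37.4%, Dlx5 at 34.2% and Chrm4 at 32.4%. In AAV-Cre WT PFC, 3 members were under 10%, 24 from 10 to 30% and 9 over 30%, and Ppp1r1b stood at 15.0%, Gpr6 at 12.5% and Lrrc10b at 7.83%. How much of each share is expression in cortex and how much is striatal tissue in the dissection was not tested.

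Shares were taken in WT SN in the same way. In the Nestin-Cre model 19 members were under 5% and 4 over 30%, and in the AAV-Cre model 11 and 4. The 4 over 30% were Eya1 (61.5 and 48.4%), Foxp2 (46.4 and 49.9%), Ebf1 (39.2 and 56.2%) and Gpr149 (36.7 and 40.7%). The Nestin-Cre mean of Eya1 rests largely on M4329, at 130%, and M4394, at 118%. In the other libraries of that group Eya1 was not the member with the largest share. At the other end, Ankrd63 had 0.198 and 1.69%, Cd4 0.295 and 1.33%, Lrrc10b 0.543 and 1.62% and Gpr6 1.24 and 4.02%. The AAV-Cre means hold M3587, and the AAV-Cre medians over libraries, which it moves less, were 0.224% for Ankrd63, 0.180% for Cd4, 0.757% for Lrrc10b and 2.49% for Gpr6.

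**Figure D2:**
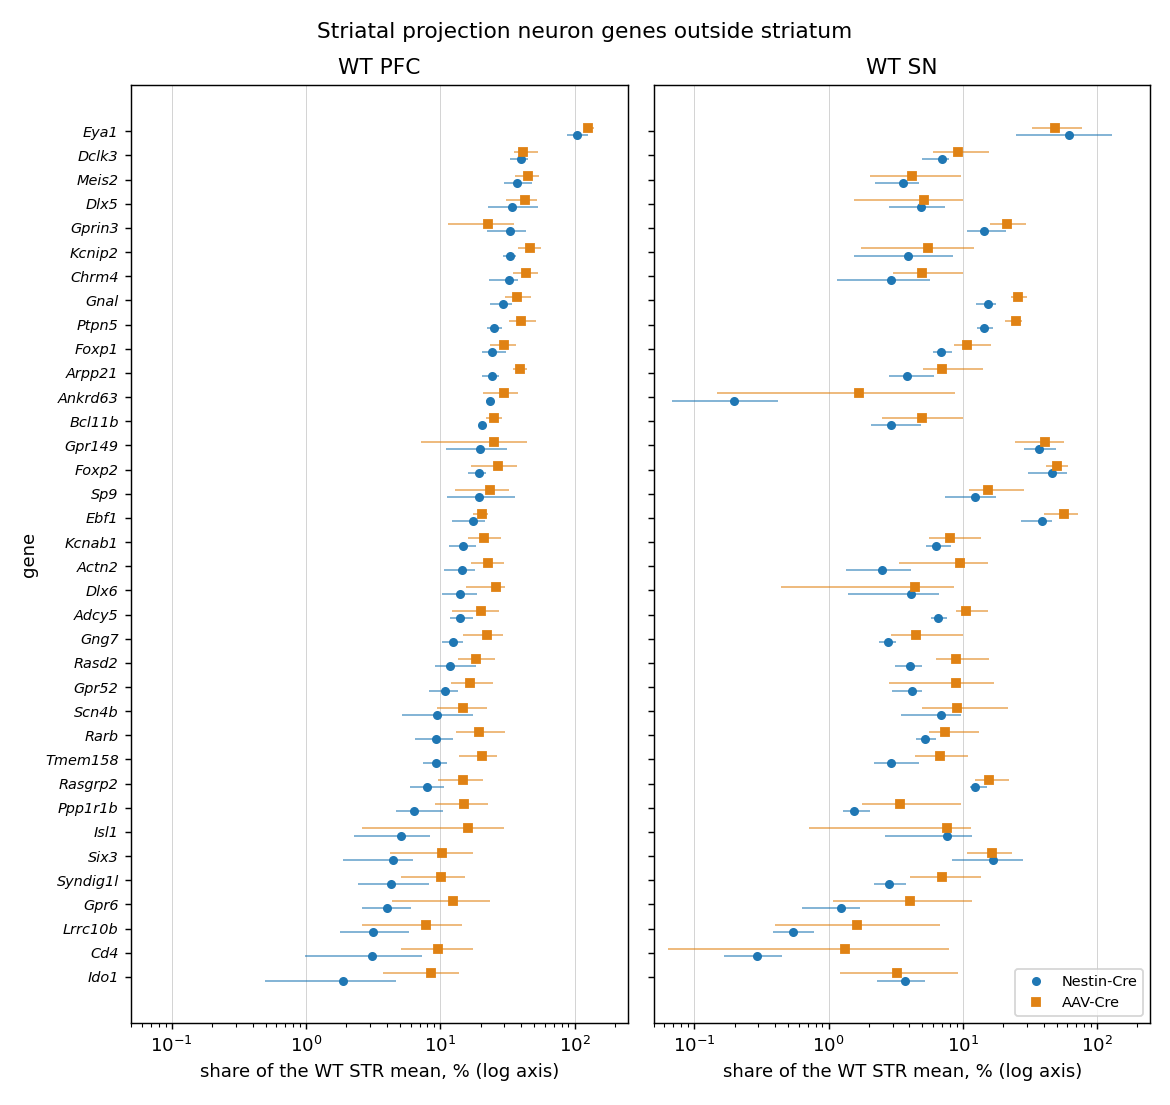
Mean share of the WT STR level (horizontal axes, %, log scale) of each member in WT PFC and WT SN, with lines from the lowest to the highest library, circles for Nestin-Cre and squares for AAV-Cre mice. Eya1 stands at 104% in Nestin-Cre PFC, Ido1 at 1.90% there, and Ankrd63 at 0.198% in Nestin-Cre SN.

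Nestin-Cre PFC asked how cortex of mice with the allele active since development differs from WT. Most members had negative log2 fold changes in both mutant groups, and none was called by the quasi-likelihood F test of edgeR. Of HET against WT, edgeR called 0 of 35 members at an adjusted p under 0.1, beside 0% of all 14386 genes tested. HET had 20 members at an unadjusted p under 0.05 (9.72% of all genes), and DESeq2 called 6 (0.806% of all genes). In HET, 33 members had a negative and 2 a positive log2 fold change, with a median of -0.25 beside 0.00 over all genes. Of HOM against WT, edgeR called 0 of 35 members at an adjusted p under 0.1, beside 0.250% of all 14386 genes tested. HOM had 15 members at an unadjusted p under 0.05 (10.1% of all genes), and DESeq2 called 2 (1.58% of all genes). In HOM, 32 members had a negative and 3 a positive log2 fold change, with a median of -0.25 beside 0.00 over all genes. Ido1 did not pass the filter on low counts here. HET and HOM share the WT libraries, so their values are not independent. Because members were chosen with earlier results of these data known, their counts beside all genes are no independent test, here or in STR. In whole tissue, fewer projection neurons and less RNA per neuron cannot be told apart, and the part of striatal tissue in the PFC dissection was not tested.

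By role, an unadjusted p under 0.05 was reached in HET by 7 of 9 signalling, 1 of 4 receptor, 6 of 12 transcription factor, 4 of 6 channel or synapse and 2 of 4 other members, and in HOM by 4 of 9 signalling, 2 of 4 receptor, 4 of 12 transcription factor, 4 of 6 channel or synapse and 1 of 4 other. The role medians of the log2 fold change in HET were -0.25 for signalling, -0.28 for receptors, -0.20 for transcription factors, -0.27 for channel or synapse genes and -0.72 for the others. Among 4 direct pathway members (Ebf1, Isl1, Chrm4 and Eya1) the median was -0.09 in HET and -0.13 in HOM, and among 5 indirect pathway members (Gpr6, Gpr52, Sp9, Six3 and Gprin3) -0.30 and -0.43. Chosen after its values were seen, Eya1 had the highest value in HET, 0.22 (adjusted p 0.465). Six3, chosen likewise, had -1.27 in HET and -1.61 in HOM, with adjusted p of 0.330 and 0.2801. Its levels were low, with differences of group means from WT of only -1.73 and -2.07 cpm. HET library M4606 and HOM library M4580 held 0.0582% and 0.421% of its WT STR mean.

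Ppp1r1b in Nestin-Cre PFC ran over 133 to 298 cpm in WT (median 171), 90.5 to 109 in HET (median 98.5) and stood at 67.0, 114, 141 and 159 in HOM. For Ppp1r1b, all 6 HET libraries lay below every WT library, and 2 of 4 HOM libraries lay below every WT library, with M4394 the highest of WT. edgeR put Ppp1r1b at a log2 fold change of -0.86 (SE 0.18) in HET, 6 of 6 libraries below the WT mean, with an adjusted p of 0.126. Ppp1r1b in HOM stood at a log2 fold change of -0.59 (SE 0.20), 4 of 4 libraries below the WT mean, with an adjusted p of 0.290. Lrrc10b (Entrez 278795, chr19:10455371-10457447, minus strand) is a leucine-rich repeat gene enriched in striatum. Lrrc10b in Nestin-Cre PFC ran over 5.42 to 17.7 cpm in WT (median 8.46), 1.94 to 6.29 in HET (median 3.92) and stood at 2.51, 4.002, 5.11 and 8.78 in HOM. For Lrrc10b, 5 of 6 HET libraries lay below every WT library, and 3 of 4 HOM libraries lay below every WT library, with M4394 the highest of WT. Lrrc10b had a log2 fold change of -1.24 (SE 0.29) in HET, with 6 of 6 libraries below the WT mean and an adjusted p of 0.135. In HOM, Lrrc10b had -0.91 (SE 0.33), with 4 of 4 libraries below the WT mean and an adjusted p of 0.326.

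Gpr6 (Entrez 140741, chr10:41070493-41071584, minus strand) encodes a receptor of indirect pathway cells that raises cAMP without a ligand. Gpr6 in Nestin-Cre PFC ran over 2.00 to 4.63 cpm in WT (median 2.97), 1.03 to 2.39 in HET (median 1.47) and stood at 0.932, 1.64, 1.77 and 1.89 in HOM. For Gpr6, 4 of 6 HET libraries lay below every WT library, and all 4 HOM libraries lay below every WT library, with M4394 the highest of WT. edgeR put Gpr6 at a log2 fold change of -0.95 (SE 0.23) in HET, 6 of 6 libraries below the WT mean, with an adjusted p of 0.147. Gpr6 in HOM stood at a log2 fold change of -0.97 (SE 0.27), 4 of 4 libraries below the WT mean, with an adjusted p of 0.176. Adcy5 (Entrez 224129, chr16:35155636-35304549, plus strand) encodes the adenylyl cyclase of these neurons. Adcy5 in Nestin-Cre PFC ran over 169 to 253 cpm in WT (median 198), 153 to 189 in HET (median 168) and stood at 144, 150.0, 169 and 185 in HOM. For Adcy5, 3 of 6 HET libraries lay below every WT library, and 2 of 4 HOM libraries lay below every WT library, with M4394 the highest of WT. edgeR put Adcy5 at a log2 fold change of -0.25 (SE 0.08) in HET, 6 of 6 libraries below the WT mean, with an adjusted p of 0.308. Adcy5 in HOM stood at a log2 fold change of -0.31 (SE 0.09), 4 of 4 libraries below the WT mean, with an adjusted p of 0.210.

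The count of HET calls changed with the tool and with the mice fitted. DESeq2 called Kcnab1, Rasd2, Gpr6, Ppp1r1b, Syndig1l and Lrrc10b lower in HET, and Gpr6 and Adcy5 in HOM. The likelihood ratio test of edgeR called 14 members lower in HET (415 of 14386 genes in all) and 10 in HOM (310 of 14386). Without M4575, edgeR called 6 members lower in HET (Kcnab1, Scn4b, Gpr6, Ppp1r1b, Syndig1l and Lrrc10b) and 91 of 14361 genes in all, and 0 members in HOM (37 of 14361 genes), with 14 members and 1402 of 14361 genes at an unadjusted p under 0.05. Leaving out HOM mouse M4580, edgeR called 4 members in HET (54 of 14366 genes in all), and leaving out M4393 1 (15 of 14357). In HOM, 9 members and 946 of 14361 genes had an unadjusted p under 0.05 without M4568 and edgeR called 0 members and 1 of 14361 genes. Without M4393 these were 14 members and 1444 of 14357 genes (36 genes called), without M4569 16 and 1161 of 14357 (9) and without M4580 12 and 1777 of 14366 (122), and edgeR called 0 members each time. As shares of the striatal level, the difference from WT had a median of -2.16 percentage points in HET (quartiles -3.16 and -1.50) and -2.12 in HOM (quartiles -2.74 and -1.18). The median share of a library ran over 12.3 to 18.3% (median 14.9) in WT, 11.0 to 13.9% (12.7) in HET and stood at 11.2, 11.9, 12.1 and 13.2% in HOM. M4394 was the highest WT library, and the groups overlapped.

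Other genes were followed in the same Nestin-Cre PFC libraries, and none of those named here was called by the quasi-likelihood F test of edgeR. The study lists Adora2a, Pde10a, Mbp and Egr1 as differentially expressed in PFC of HOM mice of this model. That list, limited to genes linked to schizophrenia, also holds the member Rasd2. In both mutant groups the study called more genes than the quasi-likelihood fit here, and the reason was not tested. The other projection neuron genes, a list no longer as set before its values were seen, had negative log2 fold changes in both mutants for the 10 genes left in it, with medians of -0.53 and -0.50 and with 10 and 7 at an unadjusted p under 0.05. Because 1 gene was left out after its values were seen, counts over this list are a description only, here and in the other regions. The lowest p belonged to the adenosine receptor Adora2a in HET, -1.41 (SE 0.31, adjusted p 0.127), and to the phosphodiesterase Pde10a in HOM, -0.63 (SE 0.18, adjusted p 0.173). Of 20 genes of cAMP signalling shared by many cell types, 2 in HET and 2 in HOM had an unadjusted p under 0.05, with medians of -0.04 and -0.07. Oligodendrocyte markers, led by the myelin gene Mbp, summed to 3942 to 6748 cpm in WT (median 4992), 3457 to 4036 in HET (median 4019.6) and 2829 to 4729.8 in HOM (median 3668), and 6 of 6 in HET and 5 of 6 in HOM had an unadjusted p under 0.05, all negative. Cholinergic markers, led by the choline transporter Slc5a7, summed to 3.49 to 7.83 cpm in WT (median 5.51), 1.80 to 4.03 in HET (median 3.13) and 2.01 to 4.57 in HOM (median 3.07), with 2 of 2 and 2 of 2 tested markers at an unadjusted p under 0.05, all negative. Immediate early genes, led by Egr1, summed to 357 to 897 cpm in WT (median 538), 614 to 1417 in HET (median 836) and 314 to 1583 in HOM (median 857), with 6 of 8 and 5 of 8 at an unadjusted p under 0.05, all positive. None of these markers was at 0 throughout a group, and their part in the members' values was not tested. Markers of cortical excitatory neurons reached an unadjusted p under 0.05 in 0 of 8 and 0 of 8, olfactory bulb in 0 of 6 and 0 of 6, dopamine neuron in 0 of 4 and 0 of 4, thalamus in 0 of 4 and 0 of 4, interneuron in 1 of 5 and 1 of 5, astrocyte in 0 of 4 and 1 of 4, microglia in 3 of 5 and 0 of 5 and T cell in 0 of 1 and 0 of 1.

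In Nestin-Cre STR, where the cell bodies lie, all 36 members passed the filter. Most had negative values in HET. In the HET comparison edgeR called 0 of 36 members at an adjusted p under 0.1, beside 0% of all 14494 genes tested. HET had 20 members at an unadjusted p under 0.05 (17.3% of all genes), and DESeq2 called 13 (3.69% of all genes). In HET, 33 members had a negative and 3 a positive log2 fold change, with a median of -0.29 beside 0.01 over all genes. In the HOM comparison edgeR called 0 of 36 members at an adjusted p under 0.1, beside 0% of all 14494 genes tested. HOM had 1 member at an unadjusted p under 0.05 (4.62% of all genes), and DESeq2 called 0 (0.00690% of all genes). In HOM, 27 members had a negative and 9 a positive log2 fold change, with a median of -0.11 beside 0.01 over all genes. Without M4575, HOM had 3 members and 471 of 14465 genes at an unadjusted p under 0.05, with 29 members negative and 7 positive. DESeq2 called Kcnab1, Dlx6, Cd4, Ptpn5, Rasd2, Ido1, Scn4b, Tmem158, Ppp1r1b, Syndig1l, Actn2, Rasgrp2 and Lrrc10b lower in HET. By the likelihood ratio test of edgeR, 14 members were called lower in HET (1242 of 14494 genes in all) and 2 in HOM (277 of 14494). As a share of the WT level, the difference in HET had a median of -18.1%, from -45.7 for Lrrc10b to 20.2 for Gprin3, and in HOM of -7.30%, from -30.2 for Ido1 to 24.5 for Dclk3.

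Ppp1r1b in Nestin-Cre STR ran over 2113 to 3398 cpm in WT (median 2939), 1299 to 2632 in HET (median 1808) and 1730.4 to 3033 in HOM (median 2498). For Ppp1r1b, 5 of 7 HET libraries lay below every WT library, and 2 of 6 HOM libraries lay below every WT library, with M4394 the highest of WT. edgeR put Ppp1r1b at a log2 fold change of -0.58 (SE 0.16) in HET, 7 of 7 libraries below the WT mean, with an adjusted p of 0.175. Ppp1r1b in HOM stood at a log2 fold change of -0.23 (SE 0.17), 5 of 6 libraries below the WT mean, with an adjusted p of 0.784. Ptpn5 (Entrez 19259, chr7:47077800-47133684, minus strand) encodes a phosphatase that acts on glutamate receptors and kinases. Ptpn5 in Nestin-Cre STR ran over 906 to 1048 cpm in WT (median 941), 618 to 937 in HET (median 716) and 717 to 909 in HOM (median 863). For Ptpn5, 6 of 7 HET libraries lay below every WT library, and 4 of 6 HOM libraries lay below every WT library, with M4545 the highest of WT. Ptpn5 had a log2 fold change of -0.35 (SE 0.09) in HET, with 7 of 7 libraries below the WT mean and an adjusted p of 0.175. In HOM, Ptpn5 had -0.18 (SE 0.09), with 6 of 6 libraries below the WT mean and an adjusted p of 0.784. Dclk3, a kinase related to doublecortin, differed in direction. Dclk3 in Nestin-Cre STR ran over 139.6 to 208 cpm in WT (median 177), 147 to 234 in HET (median 182) and 198 to 255 in HOM (median 213). For Dclk3, 2 of 7 HET libraries lay above every WT library, and 3 of 6 HOM libraries lay above every WT library, with M4529 the highest of WT. edgeR put Dclk3 at a log2 fold change of 0.10 (SE 0.11) in HET, 5 of 7 libraries above the WT mean, with an adjusted p of 0.630. Dclk3 in HOM stood at a log2 fold change of 0.31 (SE 0.11), 6 of 6 libraries above the WT mean, with an adjusted p of 0.784.

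By role, HET had an unadjusted p under 0.05 in 5 of 9 signalling, 3 of 4 receptor, 3 of 12 transcription factor, 5 of 6 channel or synapse and 4 of 5 other members, and HOM in 1 of 9 signalling, 0 of 4 receptor, 0 of 12 transcription factor, 0 of 6 channel or synapse and 0 of 5 other. The channel or synapse genes had a median log2 fold change of -0.56 in HET, with the lowest p in the potassium channel subunit Kcnab1 at -0.52 (adjusted p 0.175), and the transcription factors -0.12, with the lowest p in the homeobox gene Dlx6 at -0.31 (adjusted p 0.175). Direct pathway members had a median of -0.23 and indirect pathway members of -0.02 in HET, and -0.17 and 0.13 in HOM. The difference between these sets was not tested, and Kcnab1 and Dlx6 were chosen after their values were seen. Of the other 10 projection neuron genes, 9 had an unadjusted p under 0.05 in HET and 1 in HOM, with medians of -0.42 and -0.19; the lowest p were those of the phosphodiesterase Pde1b in HET, -0.43 (adjusted p 0.175), and the opioid precursor Pdyn in HOM, 0.43 (adjusted p 0.784). Of the 20 genes of cAMP signalling, 12 and 1 did, with medians of -0.20 and -0.11, led by the G protein subunit Gnb5 in HET, -0.44 (adjusted p 0.175), and Akap5 in HOM, 0.25 (adjusted p 0.784).

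Markers of other cells were summed in the same libraries, and no marker was called by edgeR. Interneuron markers, led by Sst and none at 0, summed to 354 to 409.7 cpm in WT (median 399), 236 to 369 in HET (median 327) and 272 to 505 in HOM (median 314); the lowest p was that of parvalbumin, Pvalb, at a log2 fold change of -1.90 (SE 0.45, adjusted p 0.175) in HET. Microglia markers, led by Csf1r, summed to 334 to 429 cpm in WT (median 354), 278 to 385 in HET (median 302) and 305 to 389 in HOM (median 369). Astrocyte markers, led by Slc1a3, summed to 773 to 1004 cpm in WT (median 895), 869 to 1254 in HET (median 1068) and 801 to 1128 in HOM (median 946). Cholinergic markers, led by Slc5a7, summed to 105 to 124 cpm in WT (median 109), 71.6 to 132 in HET (median 83.0) and 84.5 to 107 in HOM (median 91.8). Cortical excitatory neuron markers, led by Slc17a7, varied widely, with sums of 42.4 to 341 cpm in WT (median 118). Their sums ran over 44.2 to 169 cpm in HET (median 61.8) and 47.7 to 560 in HOM (median 96.0). At an unadjusted p under 0.05 stood, in HET and HOM, 0 of 8 and 0 of 8 cortical excitatory neuron genes, 1 of 4 and 1 of 4 olfactory bulb genes, 2 of 3 and 0 of 3 dopamine neuron genes, 0 of 5 and 0 of 5 thalamus genes, 2 of 5 and 1 of 5 interneuron genes, 2 of 4 and 1 of 4 cholinergic genes, 0 of 6 and 1 of 6 oligodendrocyte genes, 1 of 4 and 0 of 4 astrocyte genes, 3 of 5 and 0 of 5 microglia genes, 0 of 1 and 0 of 1 T cell genes and 1 of 8 and 3 of 8 immediate early genes. No marker was at 0 throughout a group, and their part in the members' values was not tested.

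Whether the genotype effect differed between PFC and STR was tested as an interaction, the mutant difference in PFC minus that in STR. For Nestin-Cre HET, edgeR called 0 of 36 members (0% of all 14890 genes), 7 had an unadjusted p under 0.05 (6.31%), and DESeq2 called 0 (0.0134%), with a median of -0.03 beside 0.00 over all genes. For Nestin-Cre HOM, edgeR called 0 of 36 members (0% of all 14890 genes), 6 had an unadjusted p under 0.05 (3.02%), and DESeq2 called 0 (0%), with a median of -0.21 beside 0.00 over all genes. For AAV-Cre HET, edgeR called 0 of 36 members (0% of all 15075 genes), 0 had an unadjusted p under 0.05 (4.18%), and DESeq2 called 0 (0%), with a median of -0.02 beside 0.00 over all genes. For AAV-Cre HOM, edgeR called 0 of 36 members (0% of all 15075 genes), 0 had an unadjusted p under 0.05 (4.19%), and DESeq2 called 0 (0.00663%), with a median of -0.14 beside -0.01 over all genes. Six3 had an interaction of -1.28 (SE 0.39, adjusted p 0.589) in Nestin-Cre HET and -1.74 (SE 0.48, adjusted p 0.994) in HOM, and Ppp1r1b of -0.26 (SE 0.25, adjusted p 0.847) and -0.36 (SE 0.27, adjusted p 0.994). PFC levels of Six3 were low, as given above. Under the likelihood ratio test of edgeR, 5 members were called in the Nestin-Cre HET interaction (385 of 14890 genes) and 3 in HOM (110 of 14890). PFC and STR of most mice come from the same animal, and the value with mouse as a replicate block stands with the other alternatives.

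In Nestin-Cre SN, the target of direct pathway axons, the HET values rested largely on the library of M4566. For HET against WT, edgeR called 0 of 34 members at an adjusted p under 0.1, beside 0% of all 14873 genes tested. HET had 12 members at an unadjusted p under 0.05 (8.99% of all genes), and DESeq2 called 0 (0.0336% of all genes). With M4566 included, the likelihood ratio test of edgeR called 12 members higher in HET (332 of 14873 genes). In HET, 3 members had a negative and 31 a positive log2 fold change, with a median of 0.44 beside 0.00 over all genes. Without M4566, chosen after seeing the data, 3 of 34 members and 1414 of 14840 genes had an unadjusted p under 0.05 and edgeR called 0 members, 19 had a positive and 15 a negative log2 fold change, and the median was 0.04. For HOM against WT, edgeR called 0 of 34 members at an adjusted p under 0.1, beside 0% of all 14873 genes tested. HOM had 0 members at an unadjusted p under 0.05 (4.09% of all genes), and DESeq2 called 0 (0.00672% of all genes). In HOM, 11 members had a negative and 23 a positive log2 fold change, with a median of 0.10 beside 0.00 over all genes. Without M4575, a HOM library here, HOM had 20 positive and 14 negative members, with a median of 0.06 beside -0.02 over all genes. Cd4 and Ankrd63 did not pass the filter on low counts. HOM does not hold M4566, but shares the estimate of spread with it, and without M4566 HOM had 3 members and 569 of 14840 genes at an unadjusted p under 0.05.

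Ppp1r1b in Nestin-Cre SN ran over 36.5 to 57.5 cpm in WT (median 40.2), 35.5 to 365 in HET (median 39.9) and 30.5 to 58.6 in HOM (median 41.7). For Ppp1r1b, 1 of 7 HET libraries lay below every WT library and 1 above, and 1 of 6 HOM libraries lay below every WT library and 1 above, with M4529 the highest of WT. edgeR put Ppp1r1b at a log2 fold change of 0.98 (SE 0.48) in HET, 3 of 7 libraries above the WT mean, with an adjusted p of 0.518. Ppp1r1b in HOM stood at a log2 fold change of -0.04 (SE 0.49), 4 of 6 libraries below the WT mean, with an adjusted p of 0.988. Rasgrp2 encodes an exchange factor for Rap GTPases. Rasgrp2 in Nestin-Cre SN ran over 39.0 to 52.2 cpm in WT (median 39.9), 43.6 to 85.4 in HET (median 51.5) and 39.2 to 58.8 in HOM (median 49.8). For Rasgrp2, 3 of 7 HET libraries lay above every WT library, and 2 of 6 HOM libraries lay above every WT library, with M4612 the highest of WT. edgeR put Rasgrp2 at a log2 fold change of 0.38 (SE 0.14) in HET, 7 of 7 libraries above the WT mean, with an adjusted p of 0.518. Rasgrp2 in HOM stood at a log2 fold change of 0.23 (SE 0.14), 5 of 6 libraries above the WT mean, with an adjusted p of 0.892. M4566 was the highest HET library for both genes.

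Gprin3 encodes a partner of G proteins in neurite growth and is enriched in indirect pathway cells. Gprin3 in Nestin-Cre SN ran over 2.13 to 4.15 cpm in WT (median 2.78), 1.85 to 9.30 in HET (median 5.85) and 1.82 to 5.42 in HOM (median 2.69). For Gprin3, 1 of 7 HET libraries lay below every WT library and 5 above, and 2 of 6 HOM libraries lay below every WT library and 2 above, with M4609 the highest of WT. Gprin3 had a log2 fold change of 0.89 (SE 0.32) in HET, with 5 of 7 libraries above the WT mean and an adjusted p of 0.518. In HOM, Gprin3 had 0.19 (SE 0.34), with 2 of 6 libraries above the WT mean and an adjusted p of 0.920. Foxp2 is a forkhead factor with one of the largest shares of its striatal level in SN. Foxp2 in Nestin-Cre SN ran over 29.97 to 58.7 cpm in WT (median 48.2), 35.4 to 62.8 in HET (median 48.2) and 28.7 to 46.6 in HOM (median 34.8). For Foxp2, 1 of 7 HET libraries lay above every WT library, and 1 of 6 HOM libraries lay below every WT library, with M4529 the highest of WT. edgeR put Foxp2 at a log2 fold change of 0.02 (SE 0.16) in HET, 4 of 7 libraries above the WT mean, with an adjusted p of 0.957. Foxp2 in HOM stood at a log2 fold change of -0.31 (SE 0.17), 5 of 6 libraries below the WT mean, with an adjusted p of 0.892. Without M4566 the HET log2 fold change was -0.09 for Ppp1r1b, 0.25 for Rasgrp2, 0.69 for Gprin3 and -0.01 for Foxp2. DESeq2, given that library and run at its default settings, put Ppp1r1b at -0.09. Those settings can replace an outlying count in a group of 7 libraries, and whether the count of M4566 was replaced was not recorded.

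By role, HET had an unadjusted p under 0.05 in 5 of 9 signalling, 2 of 4 receptor, 1 of 12 transcription factor, 3 of 6 channel or synapse and 1 of 3 other members, with M4566 included. The median share of a library ran over 4.02 to 5.86% in WT (median 4.85), 4.25 to 18.4% in HET (median 5.15) and 4.28 to 5.85% in HOM (median 5.28). Apart from M4566 the groups overlapped. With M4566 included, the other 10 projection neuron genes had medians of 0.73 in HET, 4 at an unadjusted p under 0.05 and led by Adora2a at 3.09 (adjusted p 0.518), and of 0.06 in HOM, 0 and led by Drd2 at -0.24 (adjusted p 0.892). Adora2a stood at 74.7 cpm in M4566 and at 0.413 to 2.14 in the other 6 HET libraries, and medians of this list without M4566 were not taken. The 20 genes of cAMP signalling had medians of -0.01 and -0.04, with 3 and 0 at an unadjusted p under 0.05. Oligodendrocyte markers, led by Mbp, summed to 16128 to 30891 cpm in WT (median 25833), 15463 to 23842 in HET (median 21542) and 14709 to 22679 in HOM (median 19227), and microglia markers, led by Csf1r, to 276 to 408 cpm in WT (median 319), 231 to 303 in HET (median 268) and 228 to 304 in HOM (median 286). Markers at an unadjusted p under 0.05 were, in HET and HOM, 0 of 7 and 0 of 7 cortical excitatory neuron genes, 0 of 4 and 0 of 4 olfactory bulb genes, 0 of 6 and 0 of 6 dopamine neuron genes, 0 of 5 and 0 of 5 thalamus genes, 1 of 5 and 0 of 5 interneuron genes, 0 of 2 and 0 of 2 cholinergic genes, 3 of 6 and 4 of 6 oligodendrocyte genes, 1 of 4 and 0 of 4 astrocyte genes, 4 of 5 and 4 of 5 microglia genes, 0 of 1 and 0 of 1 T cell genes and 3 of 7 and 2 of 7 immediate early genes. What part these have in the members' values was not tested.

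The AAV-Cre model asked the same of adults in which Cre was delivered to striatum alone. In AAV-Cre PFC HET, edgeR called 0 of 36 members at an adjusted p under 0.1, beside 0% of all 14628 genes tested. HET had 0 members at an unadjusted p under 0.05 (12.3% of all genes), and DESeq2 called 0 (0.0410% of all genes). In HET, 21 members had a negative and 15 a positive log2 fold change, with a median of -0.02 beside 0.00 over all genes. In AAV-Cre PFC HOM, edgeR called 0 of 36 members at an adjusted p under 0.1, beside 0.0137% of all 14628 genes tested. HOM had 0 members at an unadjusted p under 0.05 (14.2% of all genes), and DESeq2 called 0 (1.26% of all genes). In HOM, 28 members had a negative and 8 a positive log2 fold change, with a median of -0.09 beside 0.00 over all genes. The median share of a library ran over 15.0 to 28.8% in WT (median 22.0), 18.2 to 24.9% in HET (median 22.2) and 16.2 to 27.6% in HOM (median 19.1). The 3 groups overlapped widely, with a SD in WT of 5.16% against 1.72% in Nestin-Cre PFC WT.

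Ppp1r1b in AAV-Cre PFC ran over 194 to 476 cpm in WT (median 232), 223 to 394 in HET (median 285) and 188 to 497 in HOM (median 252). For Ppp1r1b, the 7 HET libraries lay within the WT range, and 1 of 8 HOM libraries lay below every WT library and 1 above, with M3649 the highest of WT. edgeR put Ppp1r1b at a log2 fold change of -0.08 (SE 0.22) in HET, 4 of 7 libraries below the WT mean, with an adjusted p of 0.898. Ppp1r1b in HOM stood at a log2 fold change of -0.12 (SE 0.21), 6 of 8 libraries below the WT mean, with an adjusted p of 0.824. Foxp2 marks layers of deep cortex as well as striatum. Foxp2 in AAV-Cre PFC ran over 13.0 to 28.7 cpm in WT (median 20.7), 19.5 to 30.6 in HET (median 22.2) and 17.1 to 26.9 in HOM (median 22.6). For Foxp2, 2 of 7 HET libraries lay above every WT library, and the 8 HOM libraries lay within the WT range, with M3649 the highest of WT. edgeR put Foxp2 at a log2 fold change of 0.24 (SE 0.13) in HET, 6 of 7 libraries above the WT mean, with an adjusted p of 0.459. Foxp2 in HOM stood at a log2 fold change of 0.12 (SE 0.13), 6 of 8 libraries above the WT mean, with an adjusted p of 0.700.

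Kcnab1 encodes a beta subunit of voltage-gated potassium channels. Kcnab1 in AAV-Cre PFC ran over 77.9 to 137 cpm in WT (median 97.0), 93.3 to 150.1 in HET (median 115) and 83.3 to 142 in HOM (median 112). For Kcnab1, 1 of 7 HET libraries lay above every WT library, and 1 of 8 HOM libraries lay above every WT library, with M3649 the highest of WT. edgeR put Kcnab1 at a log2 fold change of 0.20 (SE 0.12) in HET, 5 of 7 libraries above the WT mean, with an adjusted p of 0.498. Kcnab1 in HOM stood at a log2 fold change of 0.14 (SE 0.12), 6 of 8 libraries above the WT mean, with an adjusted p of 0.590. Ebf1 is a factor of direct pathway cells. Ebf1 in AAV-Cre PFC ran over 4.58 to 5.92 cpm in WT (median 5.45), 4.49 to 5.90 in HET (median 5.63) and 3.31 to 7.17 in HOM (median 4.16). For Ebf1, 1 of 7 HET libraries lay below every WT library, and 5 of 8 HOM libraries lay below every WT library and 1 above, with M3677 the highest of WT. Ebf1 had a log2 fold change of 0.00 (SE 0.14) in HET, with 3 of 7 libraries below the WT mean and an adjusted p of 0.997. In HOM, Ebf1 had -0.23 (SE 0.13), with 6 of 8 libraries below the WT mean and an adjusted p of 0.427. Gng7 encodes a G protein gamma subunit. Gng7 in AAV-Cre PFC ran over 245 to 489.9 cpm in WT (median 336), 246 to 419 in HET (median 327) and 208 to 454 in HOM (median 284). For Gng7, the 7 HET libraries lay within the WT range, and 3 of 8 HOM libraries lay below every WT library, with M3649 the highest of WT. edgeR put Gng7 at a log2 fold change of -0.17 (SE 0.18) in HET, 5 of 7 libraries below the WT mean, with an adjusted p of 0.709. Gng7 in HOM stood at a log2 fold change of -0.29 (SE 0.17), 6 of 8 libraries below the WT mean, with an adjusted p of 0.446.

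The other 10 projection neuron genes had medians of -0.03 in AAV-Cre PFC HET, led by Drd1 at 0.16 (adjusted p 0.814), and -0.18 in HOM, led by the G protein regulator Rgs9 at -0.33 (adjusted p 0.554), with 0 and 0 at an unadjusted p under 0.05. The 20 cAMP signalling genes had medians of 0.11 and 0.09, with 6 and 5 at that limit and Cdk5r1 leading at 0.15 (adjusted p 0.340) and 0.15 (adjusted p 0.237). Microglia markers, led by Csf1r, summed to 317 to 455 cpm in WT (median 364), 274 to 364 in HET (median 307) and 282 to 391 in HOM (median 308). At the same limit stood, in HET and HOM, 0 of 8 and 2 of 8 cortical excitatory neuron genes, 0 of 6 and 0 of 6 olfactory bulb genes, 0 of 4 and 0 of 4 dopamine neuron genes, 1 of 4 and 1 of 4 thalamus genes, 0 of 5 and 0 of 5 interneuron genes, 0 of 4 and 0 of 4 cholinergic genes, 1 of 6 and 1 of 6 oligodendrocyte genes, 1 of 4 and 1 of 4 astrocyte genes, 4 of 5 and 3 of 5 microglia genes, 0 of 1 and 0 of 1 T cell genes and 0 of 8 and 0 of 8 immediate early genes.

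AAV-Cre STR is the injected tissue, and Gdnf was higher there in every HOM library than in every WT library, as given above. In AAV-Cre STR HET, edgeR called 0 of 36 members at an adjusted p under 0.1, beside 0% of all 14655 genes tested. HET had 0 members at an unadjusted p under 0.05 (1.71% of all genes), and DESeq2 called 0 (0% of all genes). In HET, 19 members had a negative and 17 a positive log2 fold change, with a median of -0.01 beside 0.00 over all genes. In AAV-Cre STR HOM, edgeR called 0 of 36 members at an adjusted p under 0.1, beside 0% of all 14655 genes tested. HOM had 0 members at an unadjusted p under 0.05 (4.58% of all genes), and DESeq2 called 0 (0.0341% of all genes). In HOM, 12 members had a negative and 24 a positive log2 fold change, with a median of 0.03 beside 0.00 over all genes. As a share of the WT level, the differences had quartiles of -2.57 and 2.99% in HET, with Sp9 lowest at -24.9%, and of -1.20 and 4.52% in HOM, with Scn4b lowest at -10.7% and Eya1 highest at 15.3%. A p over the limit does not show that the levels were equal.

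Ppp1r1b in AAV-Cre STR ran over 1649 to 2429 cpm in WT (median 2192), 1778 to 2388 in HET (median 2205) and 1974 to 2568 in HOM (median 2152). For Ppp1r1b, the 7 HET libraries lay within the WT range, and 1 of 7 HOM libraries lay above every WT library, with M3588 the highest of WT. edgeR put Ppp1r1b at a log2 fold change of 0.02 (SE 0.09) in HET, 5 of 7 libraries above the WT mean, with an adjusted p of 1.00. Ppp1r1b in HOM stood at a log2 fold change of 0.06 (SE 0.09), 4 of 7 libraries above the WT mean, with an adjusted p of 1.00. Sp9 is a zinc finger factor of indirect pathway cells. Sp9 in AAV-Cre STR ran over 11.5 to 26.5 cpm in WT (median 20.9), 11.7 to 19.4 in HET (median 13.8) and 11.2 to 30.9 in HOM (median 22.7). For Sp9, the 7 HET libraries lay within the WT range, and 1 of 7 HOM libraries lay below every WT library and 1 above, with M3677 the highest of WT. edgeR put Sp9 at a log2 fold change of -0.42 (SE 0.20) in HET, 7 of 7 libraries below the WT mean, with an adjusted p of 1.00. Sp9 in HOM stood at a log2 fold change of 0.13 (SE 0.20), 5 of 7 libraries above the WT mean, with an adjusted p of 1.00. Tmem158 encodes a membrane protein induced by Ras. Tmem158 in AAV-Cre STR ran over 101 to 209.9 cpm in WT (median 136), 101 to 136 in HET (median 116) and 127 to 254 in HOM (median 159). For Tmem158, 1 of 7 HET libraries lay below every WT library, and 1 of 7 HOM libraries lay above every WT library, with M3588 the highest of WT. Tmem158 had a log2 fold change of -0.31 (SE 0.16) in HET, with 7 of 7 libraries below the WT mean and an adjusted p of 1.00. In HOM, Tmem158 had 0.16 (SE 0.16), with 5 of 7 libraries above the WT mean and an adjusted p of 1.00.

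Eya1 works as a cofactor of Six3 relatives and as a phosphatase. Eya1 in AAV-Cre STR ran over 9.80 to 15.8 cpm in WT (median 13.2), 10.6 to 16.7 in HET (median 13.6) and 12.3 to 16.7 in HOM (median 14.9). For Eya1, 1 of 7 HET libraries lay above every WT library, and 2 of 7 HOM libraries lay above every WT library, with M3649 the highest of WT. edgeR put Eya1 at a log2 fold change of 0.07 (SE 0.11) in HET, 4 of 7 libraries above the WT mean, with an adjusted p of 1.00. Eya1 in HOM stood at a log2 fold change of 0.20 (SE 0.11), 6 of 7 libraries above the WT mean, with an adjusted p of 1.00. Meis2 is a homeobox factor of the ventral forebrain. Meis2 in AAV-Cre STR ran over 398 to 507 cpm in WT (median 475), 419 to 555 in HET (median 440.2) and 429 to 547 in HOM (median 503). For Meis2, 2 of 7 HET libraries lay above every WT library, and 3 of 7 HOM libraries lay above every WT library, with M3578 the highest of WT. edgeR put Meis2 at a log2 fold change of 0.04 (SE 0.07) in HET, 3 of 7 libraries above the WT mean, with an adjusted p of 1.00. Meis2 in HOM stood at a log2 fold change of 0.13 (SE 0.07), 6 of 7 libraries above the WT mean, with an adjusted p of 1.00. The other 10 projection neuron genes had medians of 0.01 and 0.01, led in both by the enkephalin precursor Penk at 0.08 (adjusted p 1.00) and 0.15 (adjusted p 1.00), with 0 and 0 at an unadjusted p under 0.05. The 20 cAMP signalling genes had medians of 0.01 and 0.04, with 0 and 1 at that limit. At that limit stood, in HET and HOM, 0 of 7 and 2 of 7 cortical excitatory neuron genes, 0 of 4 and 0 of 4 olfactory bulb genes, 0 of 3 and 1 of 3 dopamine neuron genes, 0 of 5 and 0 of 5 thalamus genes, 0 of 5 and 0 of 5 interneuron genes, 0 of 4 and 0 of 4 cholinergic genes, 0 of 6 and 0 of 6 oligodendrocyte genes, 0 of 4 and 0 of 4 astrocyte genes, 0 of 5 and 3 of 5 microglia genes, 0 of 1 and 0 of 1 T cell genes and 0 of 8 and 0 of 8 immediate early genes.

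In AAV-Cre SN the WT group holds the library of M3587, which raises the WT level of most members. Of AAV-Cre SN HET, edgeR called 0 of 34 members at an adjusted p under 0.1, beside 0% of all 14813 genes tested. HET had 15 members at an unadjusted p under 0.05 (4.69% of all genes), and DESeq2 called 1 (0.00675% of all genes). In HET, 30 members had a negative and 4 a positive log2 fold change, with a median of -0.28 beside 0.00 over all genes. Of AAV-Cre SN HOM, edgeR called 0 of 34 members at an adjusted p under 0.1, beside 0% of all 14813 genes tested. HOM had 9 members at an unadjusted p under 0.05 (7.49% of all genes), and DESeq2 called 1 (0.0675% of all genes). In HOM, 30 members had a negative and 4 a positive log2 fold change, with a median of -0.20 beside 0.01 over all genes. The DESeq2 call in both was Ankrd63. It reached 1 cpm only in the WT libraries of M3587, M3649 and M3578 and passed the filter through them. Its call rests on the group where it is high and is not read as a genotype difference. Ankrd63 is also counted above among the 15 and 9 members at an unadjusted p under 0.05, among the 30 negative members of each group and in the medians. With M3587 included, the likelihood ratio test of edgeR called 9 members lower in HET (324 of 14813 genes) and 8 in HOM (218 of 14813). Without M3587, chosen after seeing the data, 33 members were tested, Ankrd63 no longer passing the filter; edgeR called 0 in HET and 0 in HOM, and 2 members in HET (465 of 14793 genes) and 1 in HOM (952 of 14793) had an unadjusted p under 0.05. HET then had 24 negative and 9 positive log2 fold changes with a median of -0.08, and HOM 20 and 13 with -0.09. Ido1 and Cd4 did not pass the filter on low counts.

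Ppp1r1b in AAV-Cre SN ran over 37.7 to 205 cpm in WT (median 50.3), 44.3 to 137 in HET (median 47.3) and 32.9 to 55.6 in HOM (median 46.2). For Ppp1r1b, the 7 HET libraries lay within the WT range, and 2 of 8 HOM libraries lay below every WT library, with M3587 the highest of WT. edgeR put Ppp1r1b at a log2 fold change of -0.22 (SE 0.33) in HET, 6 of 7 libraries below the WT mean, with an adjusted p of 0.978. Ppp1r1b in HOM stood at a log2 fold change of -0.67 (SE 0.32), 8 of 8 libraries below the WT mean, with an adjusted p of 0.663. Ankrd63 (Entrez 383787, chr2:118699103-118703963, minus strand) encodes an ankyrin repeat protein. Ankrd63 in AAV-Cre SN ran over 0.290 to 17.2 cpm in WT (median 0.439), 0.0963 to 0.547 in HET (median 0.231) and 0.0878 to 0.894 in HOM (median 0.315). For Ankrd63, 5 of 7 HET libraries lay below every WT library, and 4 of 8 HOM libraries lay below every WT library, with M3587 the highest of WT. Ankrd63 had a log2 fold change of -3.54 (SE 0.84) in HET, with 7 of 7 libraries below the WT mean and an adjusted p of 0.946. In HOM, Ankrd63 had -3.13 (SE 0.78), with 8 of 8 libraries below the WT mean and an adjusted p of 0.538. The WT mean of Ankrd63 rests on M3587, at 17.2 cpm, and the other 6 WT libraries had a median of 0.421. Every HET and HOM library was under 1 cpm, so only WT libraries let Ankrd63 pass the filter. Nothing is drawn from its fold changes or from its counts of libraries.

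Chrm4 encodes an inhibitory muscarinic receptor of direct pathway cells. Chrm4 in AAV-Cre SN ran over 3.71 to 12.4 cpm in WT (median 4.57), 3.23 to 4.40 in HET (median 3.92) and 3.87 to 6.42 in HOM (median 4.51). For Chrm4, 3 of 7 HET libraries lay below every WT library, and the 8 HOM libraries lay within the WT range, with M3587 the highest of WT. edgeR put Chrm4 at a log2 fold change of -0.65 (SE 0.21) in HET, 7 of 7 libraries below the WT mean, with an adjusted p of 0.946. Chrm4 in HOM stood at a log2 fold change of -0.42 (SE 0.20), 7 of 8 libraries below the WT mean, with an adjusted p of 0.667. Gprin3 encodes the partner of G proteins given above. Gprin3 in AAV-Cre SN ran over 6.67 to 12.4 cpm in WT (median 8.33), 3.27 to 10.2 in HET (median 6.32) and 5.55 to 8.002 in HOM (median 5.93). For Gprin3, 4 of 7 HET libraries lay below every WT library, and 6 of 8 HOM libraries lay below every WT library, with M3587 the highest of WT. Gprin3 had a log2 fold change of -0.43 (SE 0.18) in HET, with 6 of 7 libraries below the WT mean and an adjusted p of 0.946. In HOM, Gprin3 had -0.49 (SE 0.17), with 8 of 8 libraries below the WT mean and an adjusted p of 0.563. Without M3587 the log2 fold changes were 0.32 and -0.13 for Ppp1r1b in HET and HOM, -0.37 and -0.15 for Chrm4 and -0.33 and -0.39 for Gprin3. The HET libraries hold M3676, at 137 cpm of Ppp1r1b, where the other 6 had 44.3 to 53.7, and a fit without it was not run. The median share of a library ran over 5.98 to 13.4% in WT (median 6.83), 5.04 to 6.94% in HET (median 5.49) and 5.56 to 7.95% in HOM (median 6.17). With M3587 included, the other 10 projection neuron genes had medians of -0.50, led by Drd1 at -1.56 (adjusted p 0.946), and -0.37, led by Adora2a at -2.08 (adjusted p 0.563), with 5 and 4 at an unadjusted p under 0.05. The 20 cAMP signalling genes had medians of -0.06 and -0.04, with 4 and 3 at that limit, and the marker lists stood there with 0 of 5 and 0 of 5 cortical excitatory neuron genes, 0 of 4 and 0 of 4 olfactory bulb genes, 0 of 6 and 0 of 6 dopamine neuron genes, 0 of 4 and 1 of 4 thalamus genes, 0 of 5 and 0 of 5 interneuron genes, 0 of 2 and 0 of 2 cholinergic genes, 0 of 6 and 0 of 6 oligodendrocyte genes, 1 of 4 and 1 of 4 astrocyte genes, 0 of 5 and 1 of 5 microglia genes, 0 of 1 and 0 of 1 T cell genes and 1 of 7 and 1 of 7 immediate early genes in HET and HOM.

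**Figure D3:**
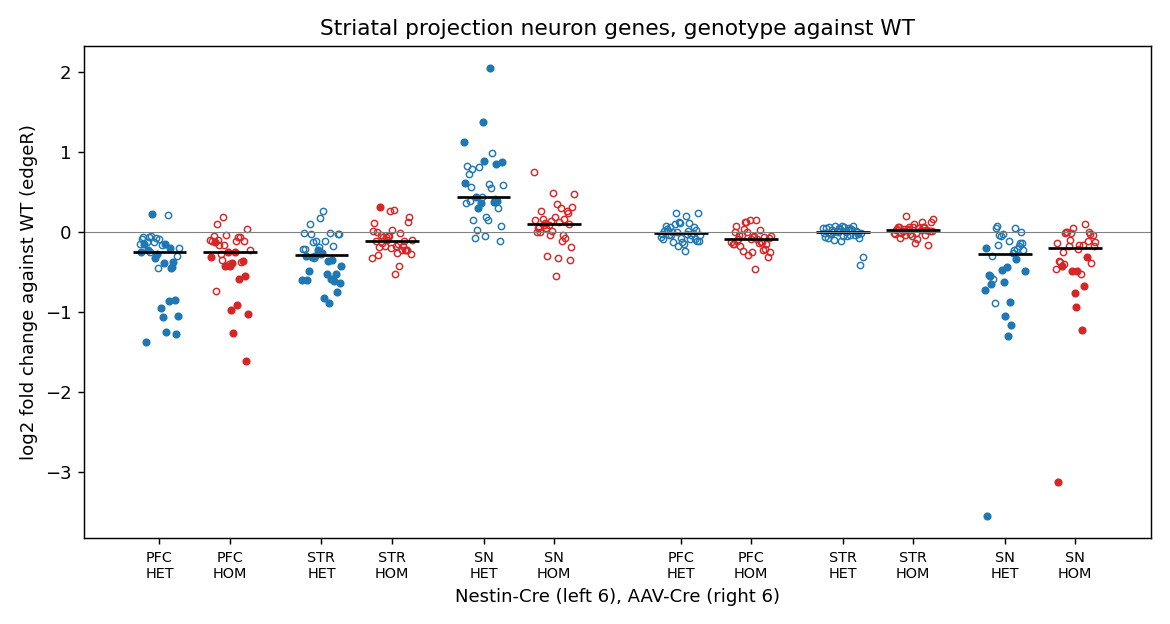
Log2 fold changes against WT (vertical axis, edgeR) of the members that passed the filter, by region and genotype, Nestin-Cre left and AAV-Cre right, HET blue and HOM red; filled points have an unadjusted p under 0.05 and bars are medians over the members. The median is 0.44 in Nestin-Cre SN HET, which holds M4566, and -0.28 in AAV-Cre SN HET, whose WT group holds M3587. The AAV-Cre SN points and medians include Ankrd63, which passed the filter only through WT libraries.

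**Figure D4:**
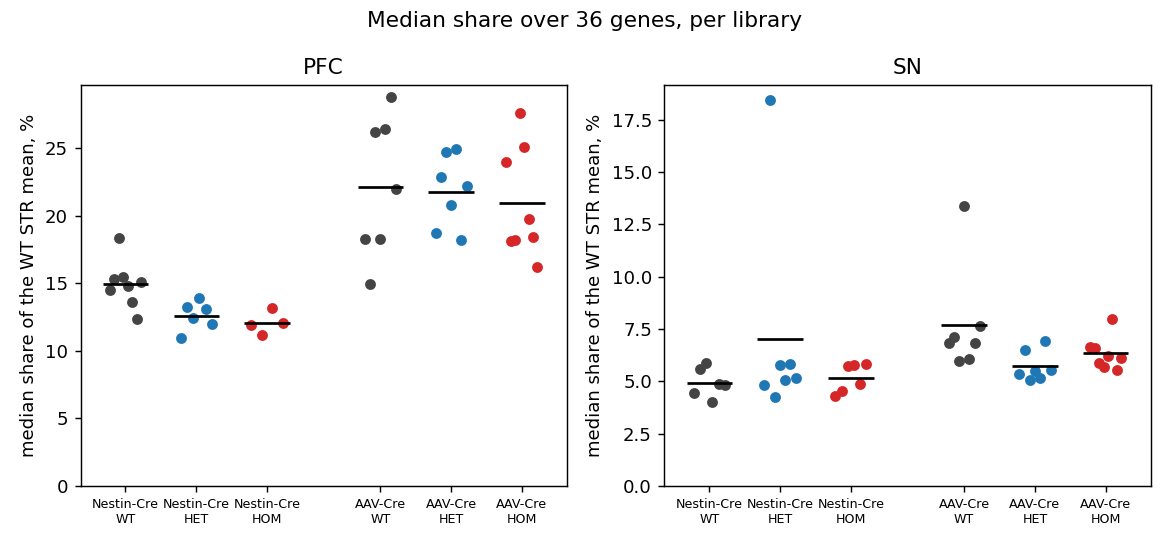
Median share of the WT STR level over the 36 members (vertical axes, %), 1 point per library of PFC and SN, with bars at the group means. M4566 stands at 18.4% and M3587 at 13.4% in SN, and the Nestin-Cre PFC groups overlap.

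Promoters of 23 of the 36 members were in the RefSeq table, 39 promoters from 250 bases before to 50 after a gene start, and were searched on both strands for TGACGTCA, the full palindromic cAMP response element. The motif was in 1 of 39 (2.56%), beside 588 of 32851 promoters of all genes (1.79%). It was that of Gpr6, which is printed as the 1 match among the members; it spans chr10:41072241-41072540 on the minus strand (RefSeq, GRCm38.p6), with the motif in capitals from position 173 of 300.
Gpr6: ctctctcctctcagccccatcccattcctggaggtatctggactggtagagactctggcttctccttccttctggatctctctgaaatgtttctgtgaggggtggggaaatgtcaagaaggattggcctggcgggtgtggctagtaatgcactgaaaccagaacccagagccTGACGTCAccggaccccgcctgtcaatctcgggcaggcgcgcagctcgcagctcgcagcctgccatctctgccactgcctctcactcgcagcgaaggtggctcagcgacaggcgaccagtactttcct
A match is a description of these letters and shows no binding.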

How the data were processed

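Gene counts in 121 libraries were deposited by the authors as raw counts, with the summed exon length of each gene (other). Per the submitters' processing notes, TruSeq stranded mRNA libraries were read as 75 bp single ends on a NextSeq, with bcl2fastq 2.20.0.422, STAR 2.5.2b to mm10 and featureCounts 1.5.1 over exons. The 36 members were found by symbol; members and gene lists were chosen with earlier results of these data known, and the list of other projection neuron genes was shortened by 1 gene after its values were seen. Positions of genes come from the count table (mm10, GRCm38).

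Counts were scaled by TMM, and genes that reached 1 cpm in 3 or more libraries of a fit were tested in edgeR 4.0.16 (quasi-likelihood F test, trended dispersion; R 4.3.3), on both sides, and p was adjusted by Benjamini-Hochberg across the genes of that fit; called means an adjusted p under 0.1. Each model and region was fitted with its 3 genotypes, the WT libraries of a model over the 3 regions, and PFC with STR for the interaction. Standard errors are on the log2 scale. Ranges and medians over the libraries of each group are given, in each region and model, for Ppp1r1b and for the 2 members with the lowest unadjusted p in HET and the 2 in HOM; no member was called there by edgeR. Levels per kb divide cpm by the summed exon length. Mouse numbers pair regions: the median correlation of log2 cpm, less the group means, ran from 0.212 to 0.339 between 2 regions of a mouse and from -0.0192 to -0.00412 between mice. Alternatives were DESeq2 1.42.0, its size factors in edgeR, no filter, edgeR's likelihood ratio test, leaving out M4575 or each Nestin-Cre PFC HOM mouse, and mouse as a replicate block; for shares, cpm without TMM and WT STR of the other model. Leaving out M4566 or M3587 from the SN fits, and M3587 from the AAV-Cre regions, was chosen after seeing the data. The fits were also run on simulated counts, but the outcome is not given here and no result rests on it. Scripts ran in Python 3.11.15 with pandas 2.3.3, numpy 2.4.6 and matplotlib 3.10.9.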

Additional observations from a re-analysis of the deposited data

Results flagged for a closer look

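Libraries far from the others of their group, by the gap to the nearest of them over the whole range, stood out in 21 of 147 groups of values. The rule flags about 1 in 20 groups by chance, which would be 7, but these groups share libraries and related genes, so their number under chance was not measured. M4394 of Nestin-Cre PFC WT had Ppp1r1b at 298 cpm (others 133 to 206). M4612 of Nestin-Cre SN WT had Rasgrp2 at 52.2 cpm (others 39.0 to 43.6). M4609 of Nestin-Cre SN WT had Gprin3 at 4.15 cpm (others 2.13 to 2.88). M4566 of Nestin-Cre SN HET had Ppp1r1b at 365 cpm (others 35.5 to 51.0), Rasgrp2 at 85.4 cpm (others 43.6 to 60.8), the median share at 18.4% (others 4.25 to 5.82), Gdnf at 1.56 cpm (others 0.278 to 0.627) and cholinergic markers together at 18.3 cpm (others 1.98 to 4.43). M3567 of AAV-Cre STR HOM had Tmem158 at 254 cpm (others 127 to 172). M3587 of AAV-Cre SN WT had Ppp1r1b at 205 cpm (others 37.7 to 63.1), Ankrd63 at 17.2 cpm (others 0.290 to 3.34), the median share at 13.4% (others 5.98 to 7.65), Gdnf at 1.02 cpm (others 0.0972 to 0.323) and cholinergic markers together at 10.3 cpm (others 1.96 to 4.91). M3676 of AAV-Cre SN HET had Ppp1r1b at 137 cpm (others 44.3 to 53.7). M3570 of AAV-Cre SN HOM had Chrm4 at 6.42 cpm (others 3.87 to 4.62). M3687 of AAV-Cre SN HOM had the median share at 7.95% (others 5.56 to 6.65). M4580 of Nestin-Cre PFC HOM had Gdnf at 0.645 cpm (others 0.0930 to 0.145). M4394 of Nestin-Cre STR WT had oligodendrocyte markers together at 12209.8 cpm (others 6031 to 8148). M4577 of Nestin-Cre PFC HET had astrocyte markers together at 1532 cpm (others 1224 to 1338). M4569 of Nestin-Cre SN HOM had cholinergic markers together at 9.93 cpm (others 2.67 to 3.84). No cause was tested.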

How the results depend on the processing

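Counts of members called kept within 1.5 times in 110 of 129 alternatives and were higher in 19; counts of all genes did so in 89 of 129, higher in 38 and lower in 2. Under DESeq2 the members called were 6 in Nestin-Cre PFC HET, 2 in Nestin-Cre PFC HOM, 13 in Nestin-Cre STR HET, 1 in AAV-Cre SN HET and 1 in AAV-Cre SN HOM, and all genes 116 in Nestin-Cre PFC HET, 227 in Nestin-Cre PFC HOM, 535 in Nestin-Cre STR HET, 1 in Nestin-Cre STR HOM, 5 in Nestin-Cre SN HET, 1 in Nestin-Cre SN HOM, 6 in AAV-Cre PFC HET, 184 in AAV-Cre PFC HOM, 5 in AAV-Cre STR HOM, 1 in AAV-Cre SN HET, 10 in AAV-Cre SN HOM, 2 in Nestin-Cre HET interaction and 1 in AAV-Cre HOM interaction. The likelihood ratio test called as members 14 in Nestin-Cre PFC HET, 10 in Nestin-Cre PFC HOM, 14 in Nestin-Cre STR HET, 2 in Nestin-Cre STR HOM, 12 in Nestin-Cre SN HET, 1 in AAV-Cre PFC HOM, 2 in AAV-Cre STR HET, 9 in AAV-Cre SN HET, 8 in AAV-Cre SN HOM, 5 in Nestin-Cre HET interaction and 3 in Nestin-Cre HOM interaction, and over all genes 415 in Nestin-Cre PFC HET, 310 in Nestin-Cre PFC HOM, 1242 in Nestin-Cre STR HET, 277 in Nestin-Cre STR HOM, 332 in Nestin-Cre SN HET, 119 in Nestin-Cre SN HOM, 248 in AAV-Cre PFC HET, 429 in AAV-Cre PFC HOM, 56 in AAV-Cre STR HET, 175 in AAV-Cre STR HOM, 324 in AAV-Cre SN HET, 218 in AAV-Cre SN HOM, 385 in Nestin-Cre HET interaction, 110 in Nestin-Cre HOM interaction, 34 in AAV-Cre HET interaction and 49 in AAV-Cre HOM interaction. With size factors of DESeq2 in edgeR, genes called were 55 in Nestin-Cre PFC HOM, and with no filter 2 in Nestin-Cre SN HOM, 1 in AAV-Cre STR HOM and 1 in AAV-Cre SN HOM. Without M4575, members called were 6 in Nestin-Cre PFC HET, and all genes 91 in Nestin-Cre PFC HET. Leaving out 1 HOM mouse of Nestin-Cre PFC gave 0 to 4 members and 0 to 54 genes in HET, and 1 to 122 genes in HOM, where fewer libraries were fitted. With mouse as a replicate block and without M4575, 2 in Nestin-Cre HET interaction passed over all genes and 0 members by edgeR; at an unadjusted p under 0.05 stood 10 members (1004 of 14865 genes) in HET and 9 members (442 of 14865 genes) in HOM, with medians of 0.04 and -0.32. With the block, the AAV-Cre interactions had 0 members called by edgeR and 0 members (1239 of 15075 genes) in HET and 1 member (1363 of 15075 genes) in HOM at that limit, and in the WT regions 7 members were called higher and 28 lower in Nestin-Cre SN than in PFC; the block changed no other count of members called. Of 268 alternative log2 fold changes of members, 226 kept sign and side of the limit, 34 passed it and 8 turned sign. Ppp1r1b turned to -0.0891 under DESeq2 and -0.0881 without M4566 in Nestin-Cre SN HET, and to 0.325 and, without M3587, 0.3198 in AAV-Cre SN HET. The DESeq2 fits ran at default settings, which can replace outlying counts, as given above. Foxp2 turned to -0.0128 without M4566 in Nestin-Cre SN HET, and Ebf1 in AAV-Cre PFC HET to 0.000886 under DESeq2, 0.000943 with its size factors and 0.00149 with no filter. Median shares with WT STR of the other model became 16.8% in Nestin-Cre PFC WT, 15.0% in Nestin-Cre PFC HET, 13.1% in Nestin-Cre PFC HOM, 6.02% in Nestin-Cre SN WT, 6.05% in Nestin-Cre SN HOM, 19.4% in AAV-Cre PFC HET, 4.35% in AAV-Cre SN HET and 4.96% in AAV-Cre SN HOM, and with cpm from total counts 6.02% in Nestin-Cre SN HOM; 15 of 24 moved by less than 1 SD. Leaving out M4566 or M3587 was chosen after seeing the data, and the cause of these changes was not tested. Limits: tissue was dissected as a whole, groups held 4 to 8 mice, the models differ in age and treatment, and Ido1, Cd4 and Ankrd63 were too scarce for a test in some regions.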
